A study of Mus musculus with 8 samples.

Results

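The genes described here are 58 genes of ribosome biogenesis and RNA polymerase I, followed through 8 arrays of XCR1+ dendritic cells from mouse spleen. Of the 58, 56 were measured, among 19938 genes in all. A gene was measured where a row of the array table was annotated to its symbol and no other. For the 4 genes with several such rows the row with the highest mean over all arrays was used. A gene's mean level is therefore a description. Ppan shared its row with another symbol, and Noc2l was not analysed here. All cells came from untreated mice that carry the Il12b-EYFP reporter, a yellow fluorescent protein that marks expression of Il12b, the gene of the p40 subunit of interleukin 12. Cells negative for lineage markers, with no or low Bst2, high CD11c and CD8α on the surface, were sorted into a CCR7+ fraction with reporter (CCR7+Il12b+, n = 2), a CCR7+ fraction without reporter (CCR7+Il12b-, n = 3), and an immature fraction with neither CCR7 nor reporter (n = 3). XCR1 itself is not among the listed sorting markers. CCR7 is the chemokine receptor gained by maturing dendritic cells, and the study asked how the cells that mature without infection differ from immature ones. The labels give no age for the mice. Whether the replicates of a fraction were different mice is not stated. The p-values therefore set differences only against the spread between these arrays, and that spread may be technical.

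Ribosomes are assembled mainly in the nucleolus. RNA polymerase I transcribes the precursor of most ribosomal RNA, small nucleolar ribonucleoproteins (snoRNPs) guide its chemical modification, the small subunit processome cuts and folds the part that becomes the 40S subunit, and other assembly factors build the 60S subunit. Production of ribosomes is costly, it is high in growing and dividing cells, and many of its genes are known targets of the transcription factor MYC.

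Values are log2 expression levels, so that a difference of 1 is a 2-fold change, and the number of arrays limits their precision. Array medians over all rows lay between 5.25 and 5.46. All 12 markers of XCR1+ dendritic cells, such as Xcr1, Clec9a and Batf3, were above the background mark of 4.98 in every fraction, which was taken from olfactory and vomeronasal receptor genes. Their mean per array was 8.77 to 8.91 in CCR7+Il12b+ cells, 9.38 to 9.75 in CCR7+Il12b- cells and 9.87 to 9.97 in immature cells. Against immature cells 8 were called lower and 2 higher in CCR7+Il12b+ cells (called as defined below), from -4.82 (Tlr3) to 2.64 (Ly75). In CCR7+Il12b- cells 5 were lower and 2 higher. Itgae was close to the mark in CCR7+Il12b+ cells (mean 5.01), with replicate 1 below it at 4.71. Of the 6 plasmacytoid dendritic cell markers, 5, 6 and 6 were above the mark in CCR7+Il12b+, CCR7+Il12b- and immature cells. Their array means were 5.99 to 6.03, 6.26 to 6.47 and 6.92 to 7.01, and Ccr9 was the marker below the mark in CCR7+Il12b+ cells. Against immature cells 4 of them, Ccr9, Siglech, Tcf4 and Bst2, were called lower in both matured fractions, and none higher. Of the 8 monocyte and macrophage markers, 6, 8 and 6 were above the mark in the same order, with array means of 6.52 to 6.77, 6.90 to 6.93 and 6.39 to 6.64. These means hide moves in opposite directions. Against immature cells 3 were called higher and 3 lower with the reporter, and 3 higher and 2 lower without it. Group means, in the same order, were 9.97, 9.37 and 6.81 for Vcam1 and 10.17, 10.255 and 7.11 for Spic. They were 7.47, 9.12 and 10.58 for Lyz2 and 4.66 (below the mark), 5.15 and 7.09 for Ccr2. Among 5 B cell markers the array means were, in the same order, 5.30 to 5.43, 5.70 to 5.96 and 5.04 to 5.30, with Cd79a and Ebf1 below the mark in every fraction. Relative to immature cells 1 of them was called higher and 1 lower with the reporter, and 3 higher and none lower without it. Ms4a1 was called higher in both matured fractions, by 0.91 (log2) with the reporter and 1.51 without it. Cd79b was called lower with the reporter (-0.58) and higher without it (0.57). Cd79a was also called higher without the reporter, though below the mark. Means of T cell, NK cell, neutrophil and erythroid markers lay between 4.13 and 5.34. Above the mark were, in the same order, 3, 3 and 2 of 6 T cell and 2, 2 and 1 of 6 NK cell markers. For neutrophils these counts were 3, 3 and 2 of 6, and for erythroid cells 2 of 3 throughout. Cd3d, Cd3g, Ncr1, Ly6g and Klf1 were below the mark in every fraction. Against immature cells Cd3e was called higher in CCR7+Il12b- cells (log2 difference 0.37). So were Lat (at least 1.32-fold) and Nkg7 (at least 1.15-fold), whose immature means were below the mark. In CCR7+Il12b+ cells Cd3d was called lower and Mmp9 higher, both below the mark throughout. Cd5 had means of 5.82, 6.43 and 6.60, with the first called lower than the last. Alas2 had 5.76, 5.67 and 5.21, with both matured fractions called higher. Markers of several cell types thus moved with the fractions, and their part in the differences below was not tested. In such sorted samples fewer cells of a type and less RNA per cell cannot be told apart.

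Most ribosome biogenesis genes were lower in both matured fractions than in immature cells, and lowest in the fraction that also expressed the Il12b reporter. In CCR7+Il12b+ cells 49 of 56 fell, against 17.9% of all genes called lower in that comparison, and their median log2 difference from immature cells was -1.26, beside 0.09 over all genes (-1.24 with the 6 genes below the background mark there set to bounds). In CCR7+Il12b- cells 45 of 56 fell, against 14.5% of all genes, with a median of -0.78 beside 0.06. Between the matured fractions 21 of 56 were lower in CCR7+Il12b+ cells, against 4.47% of all genes, with a median of -0.49 beside 0.02 (-0.43 with bounds). Among genes whose mean over the 8 arrays was above the background mark the shares called lower were 28.0%, 22.8% and 7.11% in the same order. No gene of the 56 rose in any of the 3 comparisons in limma's moderated test, while 14.1%, 9.1% and 2.61% of all genes did. At an unadjusted p under 0.05 the counts of rises were 0, 0 and 1. A gene is called here, and said to have fallen or risen, at an adjusted p under 0.05 after Benjamini-Hochberg adjustment over all 19938 genes.

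The size of the falls differed widely among the genes. Of the 49 falls in CCR7+Il12b+ cells 38 were at least 2-fold (8.21% of all genes fell that far), as were 15 of the 45 in CCR7+Il12b- cells (3.21%) and 10 of the 21 between the matured fractions (1.52%). Both comparisons with immature cells use the same 3 immature arrays. Both arrays of CCR7+Il12b+ cells lay below all immature arrays for 53 genes (23.6% of all genes did so), all arrays of CCR7+Il12b- cells below all immature arrays for 47 (19.2%), and both CCR7+Il12b+ arrays below all CCR7+Il12b- arrays for 33 (14.3%). Group means were lowest in CCR7+Il12b+ cells, between in CCR7+Il12b- cells and highest in immature cells for 51 genes, and the exceptions were Polr1b, Polr1d, Rrp12, Wdr3 and Gtpbp4. For 48 genes CCR7+Il12b+ cells lay more than 0.5 below immature cells. The difference of CCR7+Il12b- from immature cells was, in the median, 57.0% of that difference. Values below the background mark were used there as measured, and an order in time between the fractions was not tested. In immature cells the genes had mean levels from 5.70 (Polr1b) to 10.66 (Polr1d). The arrays of CCR7+Il12b- cells were not alike: relative to the immature mean of each gene, the median over the 56 genes was -1.15 and -1.37 in the CCR7+Il12b+ arrays, -0.63, -0.82 and -0.97 in CCR7+Il12b- replicates 1, 2 and 3, and -0.14, 0.02 and 0.09 in the immature arrays. CCR7+Il12b- replicate 3 was the lowest of its fraction for 38 of the 56 genes, and without it 39 genes fell in CCR7+Il12b- cells against immature cells and 24 in CCR7+Il12b+ against CCR7+Il12b- cells.

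**Figure D1:**
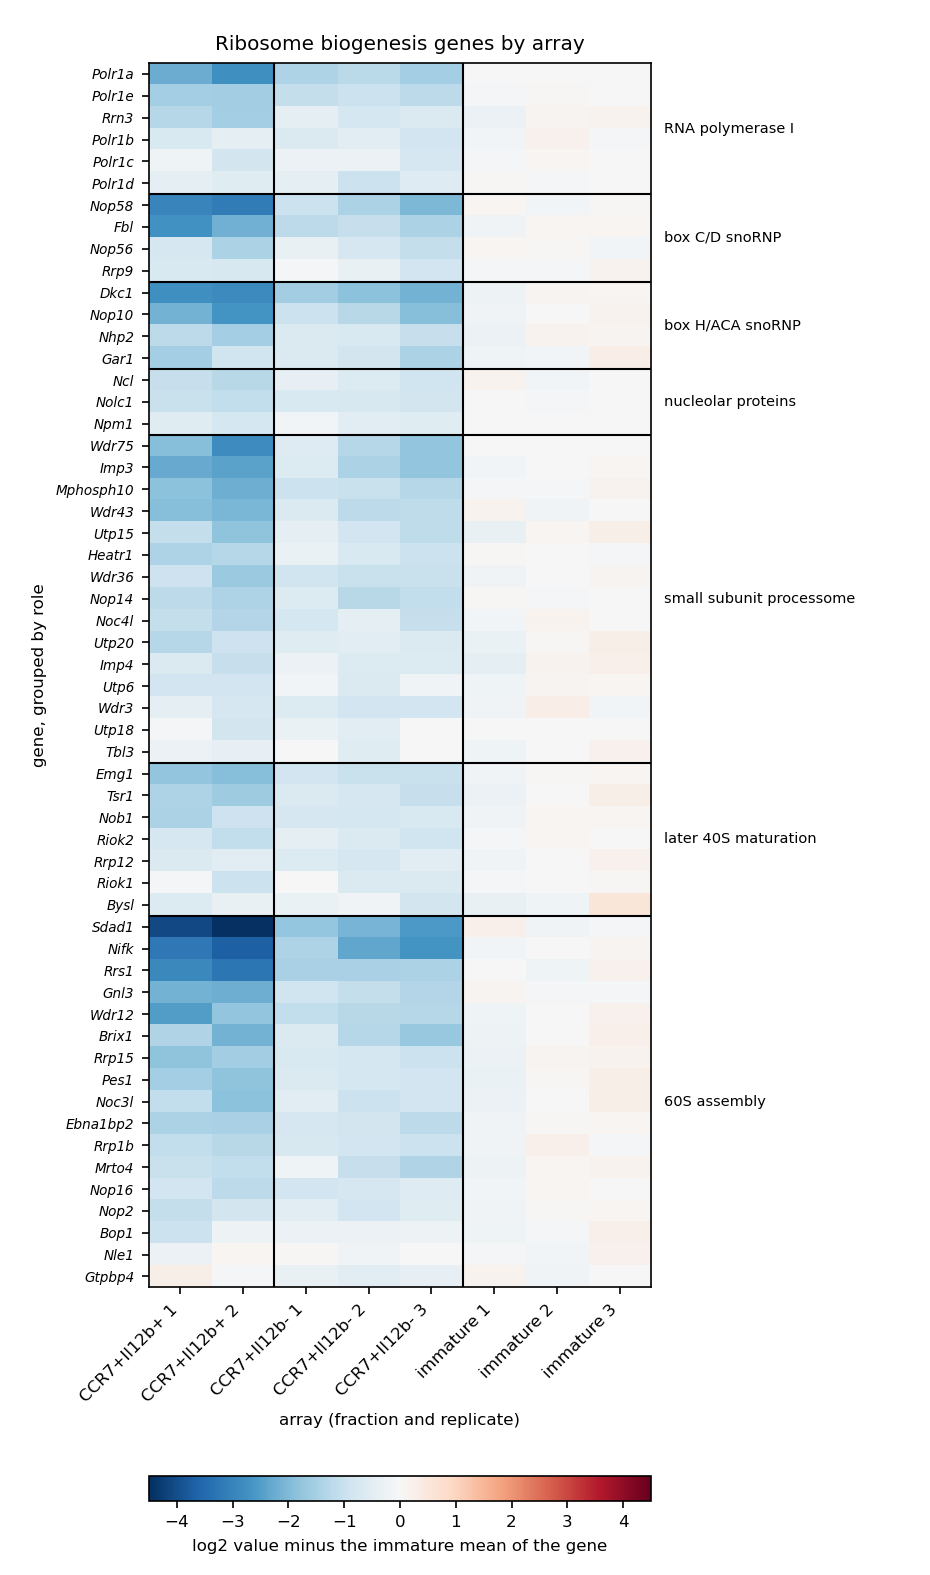
Heat map of the 56 measured genes (rows, grouped by role) in the 8 arrays (columns, with CCR7+Il12b+ cells at the left, CCR7+Il12b- cells in the middle and immature cells at the right). Colour gives the log2 value minus the gene's immature mean, and blue, for lower values, is deepest in the CCR7+Il12b+ arrays for most genes, with Sdad1 lowest at the left and Gtpbp4 and Nle1 pale throughout.

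RNA polymerase I was represented by 5 subunit genes and by Rrn3, whose protein TIF-IA brings the polymerase to the promoter of ribosomal RNA genes. In both comparisons with immature cells 5 of these 6 genes fell. Polr1a, the gene of the largest subunit, which holds part of the catalytic centre, was at 5.96 and 5.43 in CCR7+Il12b+ cells, 6.80, 7.0 and 6.65 in CCR7+Il12b- cells and 8.18, 8.20 and 8.20 in immature cells. The 3 fractions did not overlap, and Polr1a fell 5.65-fold in CCR7+Il12b+ cells (log2 difference -2.50 ± 0.16, here and below ± SE, adjusted p = 7.30e-07) and fell by 1.38 ± 0.14 in CCR7+Il12b- cells (adjusted p = 5.66e-05). It differed between CCR7+Il12b+ and CCR7+Il12b- cells by -1.12 ± 0.16 (adjusted p = 0.00192). Polr1e, a subunit that helps the enzyme to initiate and elongate, had levels of 4.70 and 4.67 in CCR7+Il12b+ cells, 5.15, 5.28 and 5.05 in CCR7+Il12b- cells and 6.17, 6.29 and 6.24 in immature cells. Its CCR7+Il12b+ mean lay below the background mark, so that its fall is given as a bound, with each CCR7+Il12b+ array set to the mark where it is below it. Here and below, an adjusted p beside a bound belongs to the values as measured, and the bound itself was not tested. The fall of Polr1e was at least 2.39-fold against immature cells (adjusted p = 1.87e-06). In CCR7+Il12b- cells the log2 difference was -1.07 ± 0.10. Set between the matured fractions, Polr1e was at least 1.13-fold lower (adjusted p = 0.0306), but was not called without any 1 array apart from immature replicate 1 and CCR7+Il12b- replicate 3 (0.0559 to 0.114). It was not called either with both matured fractions alone in the fit (0.0901).

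Rrn3 levels were 6.10 and 5.86 in CCR7+Il12b+ cells, 6.95, 6.59 and 6.74 in CCR7+Il12b- cells and 7.11, 7.51 and 7.55 in immature cells, again without overlap between the fractions. Its log2 difference was -1.41 ± 0.16 in CCR7+Il12b+ cells (adjusted p = 5.09e-05) and -0.63 ± 0.15 in CCR7+Il12b- cells (adjusted p = 0.00875), both against immature cells. The direct difference between the matured fractions, -0.78 ± 0.16, passed the test (adjusted p = 0.0161) but did not without CCR7+Il12b- replicate 1 (0.0526) or CCR7+Il12b+ replicate 2 (0.113). Falls were smaller in the values of the remaining subunits, though this was not tested: Polr1b, the second largest subunit, and Polr1d, which RNA polymerase III shares, had log2 differences of -0.57 and -0.48 in CCR7+Il12b+ cells. The Polr1d call ended without any 1 immature array (adjusted p from 0.0688 to 0.0774) or without CCR7+Il12b+ replicate 1 (0.0613) or 2 (0.176) and with array weights (0.0685). The Polr1b call ended without immature replicate 2 (0.0539) or CCR7+Il12b+ replicate 1 (0.0885). In CCR7+Il12b- cells Polr1b and Polr1d differed from immature cells by -0.69 ± 0.13 and -0.66 ± 0.14. Polr1c, the other subunit shared with RNA polymerase III, was not called in any comparison, with -0.50 ± 0.20 in CCR7+Il12b+ cells and a 95% interval of -0.93 to -0.06 against immature cells. It passed there without CCR7+Il12b- replicate 3 (0.0466) or CCR7+Il12b+ replicate 1 (0.0140).

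The 250 bases before the start of Rrn3 are shown because, of all the genes described here, its RefSeq promoter window holds the most E-boxes, the letters CACGTG that MYC with its partner MAX and several other factors can bind. Capitals mark the E-boxes (RefSeq, GRCm38.p6, chr16:13780449-13780698, plus strand).
Rrn3: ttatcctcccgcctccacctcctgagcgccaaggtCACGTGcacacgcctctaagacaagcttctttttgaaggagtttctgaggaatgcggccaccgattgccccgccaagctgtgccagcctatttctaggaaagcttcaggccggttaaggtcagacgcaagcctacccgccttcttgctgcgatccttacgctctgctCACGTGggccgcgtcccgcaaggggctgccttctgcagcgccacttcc

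Promoter windows, from 250 bases before to 50 after the start, were found for 50 of the 58 genes, and the counts leave out the others. The E-box CACGTG, which reads the same on both strands, was present in the windows of 10 of these 50 genes (20.0%), beside 11.3% of 9787 windowed genes above the background mark and 8.09% of all 27025. The letters CCGGAAG, on either strand, the core bound by ETS family factors, were in 19 of 50 (38.0%), beside 19.1% and 9.93%. The GC box GGGCGG, on either strand, was in 31 of 50 (62.0%), beside 66.2% and 38.2%. Motifs that share bases with each other were all counted. Of the genes measured, those with an E-box had a median log2 difference in CCR7+Il12b+ against immature cells of -1.26 (n = 10), and 8 of them fell. Genes with a window but no E-box had a median of -1.32 (n = 38), and 34 of them fell. A match describes these letters and is neither a site nor a cause. The E-box, in capitals, is printed with 12 bases on each side for the 4 genes with this motif, other than Rrn3, that fell most in CCR7+Il12b+ cells. For comparison it is printed for both such genes that were not called there.
Sdad1 (chr5:92309986-92310015, minus strand): agcggcgtgtccCACGTGccgtttccggtt
Wdr43 (chr17:71616220-71616249, plus strand): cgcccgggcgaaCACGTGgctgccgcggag
Pes1 (chr11:3963965-3963994, plus strand): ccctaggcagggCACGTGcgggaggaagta
Tsr1 (chr11:74898092-74898121, plus strand): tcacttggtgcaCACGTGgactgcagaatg
Utp18 (chr11:93885769-93885798, minus strand): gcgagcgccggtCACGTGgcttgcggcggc
Nle1 (chr11:82908355-82908384, minus strand): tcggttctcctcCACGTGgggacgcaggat

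Sdad1, Wdr43, Pes1 and Tsr1 differed from immature cells by -4.30, -1.98, -1.67 and -1.49 (log2) in CCR7+Il12b+ cells, and Utp18 and Nle1 by -0.43 and -0.08. The same 6 letters thus stood in windows of genes with large falls and of genes that were not called.

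The box C/D snoRNPs methylate ribosomal RNA. In CCR7+Il12b+ cells all 4 of their genes fell, and in CCR7+Il12b- cells 3 did. Nop58, a scaffold protein of these particles, was at 5.88 and 5.70 in CCR7+Il12b+ cells, 7.86, 7.42 and 6.81 in CCR7+Il12b- cells and 8.91, 8.70 and 8.90 in immature cells, and the fractions did not overlap. It fell 8.26-fold in CCR7+Il12b+ cells (-3.05 ± 0.24, adjusted p = 2.71e-06). Its log2 difference was, for CCR7+Il12b- against immature cells, -1.47 ± 0.21 (adjusted p = 0.000510), and that between the matured fractions -1.57 ± 0.24 (adjusted p = 0.00258). Fbl, the gene of the methyltransferase fibrillarin, had levels of 7.88 and 8.42 in CCR7+Il12b+ cells, 9.43, 9.55 and 9.16 in CCR7+Il12b- cells and 10.44, 10.67 and 10.68 in immature cells. These also did not overlap, and the log2 differences were -2.45 ± 0.18 for CCR7+Il12b+ against immature cells (adjusted p = 1.57e-06), -1.22 ± 0.16 for CCR7+Il12b- against immature cells (adjusted p = 0.000246) and -1.23 ± 0.18 between the matured fractions (adjusted p = 0.00187). The sizes for Fbl depend on the row, since its second row, at a lower level, gave -0.77, -0.61 and -0.16 in the same order. Nop56, the partner of Nop58, fell in CCR7+Il12b+ cells (-1.11 ± 0.22) and in CCR7+Il12b- cells (-0.73 ± 0.20). The CCR7+Il12b- call was lost without immature replicate 1 (adjusted p = 0.0565) or 2 (0.0693) or without CCR7+Il12b- replicate 2 (0.0621) or 3 (0.0821). Rrp9, a protein of the U3 particle that starts the cutting of the precursor, differed by -0.70 ± 0.20 in CCR7+Il12b+ cells (adjusted p = 0.0203) and was not called there without immature replicate 3 (0.0726) or CCR7+Il12b+ replicate 1 (0.0683) or 2 (0.108). For CCR7+Il12b- against immature cells it differed by -0.42 ± 0.18 (adjusted p = 0.130, and 0.0220 without CCR7+Il12b- replicate 1).

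The box H/ACA snoRNPs convert uridine to pseudouridine, and their proteins are also part of telomerase. All 4 genes fell in both matured fractions against immature cells. Dkc1 encodes dyskerin, the pseudouridine synthase, and was at 4.51 and 4.38 in CCR7+Il12b+ cells, 5.69, 5.40 and 5.12 in CCR7+Il12b- cells and 7.04, 7.38 and 7.35 in immature cells. No array of one fraction reached another. The CCR7+Il12b+ mean was below the background mark, which puts the fall against immature cells at least at 4.86-fold (adjusted p = 5.03e-07). The fall in CCR7+Il12b- cells was 3.61-fold (-1.85 ± 0.15, adjusted p = 1.08e-05). Against CCR7+Il12b- cells it was at least 1.35-fold lower in CCR7+Il12b+ cells (adjusted p = 0.00693, and 0.0548 without CCR7+Il12b+ replicate 2). Nop10, a small scaffold protein of the same particle, had 7.12 and 6.58 in CCR7+Il12b+ cells, 8.29, 7.99 and 7.35 in CCR7+Il12b- cells and 9.10, 9.24 and 9.42 in immature cells. CCR7+Il12b+ and CCR7+Il12b- arrays both lay below the immature ones, with log2 differences of -2.40 ± 0.25 (adjusted p = 2.10e-05) and -1.37 ± 0.22 (adjusted p = 0.000999). CCR7+Il12b+ cells differed from CCR7+Il12b- cells by -1.03 ± 0.25 (adjusted p = 0.0298). This call needed immature replicate 2, CCR7+Il12b- replicates 1 and 2 and both CCR7+Il12b+ replicates, since leaving out any of them gave 0.0512 to 0.222, and a fit on both matured fractions alone gave 0.0666. Nhp2 and Gar1, the other core proteins, had log2 differences of -1.37 ± 0.17 and -1.22 ± 0.25 in CCR7+Il12b+ cells and of -0.79 ± 0.16 and -0.96 ± 0.22 in CCR7+Il12b- cells.

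Of 3 genes of abundant nucleolar proteins all fell in CCR7+Il12b+ cells and 2 in CCR7+Il12b- cells, and none was called between the matured fractions, with median log2 differences of -1.05, -0.64 and -0.31. Ncl, the gene of nucleolin, was at 9.54 and 9.33 in CCR7+Il12b+ cells, 10.21, 9.94 and 9.66 in CCR7+Il12b- cells and 10.72, 10.46 and 10.54 in immature cells. Its levels did not overlap between fractions. The log2 differences from immature cells were -1.14 ± 0.16 in CCR7+Il12b+ cells (adjusted p = 0.000231) and -0.64 ± 0.14 in CCR7+Il12b- cells (adjusted p = 0.00802). The matured fractions differed by -0.50 ± 0.16 (adjusted p = 0.101), which passed without CCR7+Il12b- replicate 3 (0.0245), after quantile normalization (0.0450) and with a replicate block (0.0470). Nolc1, whose product shuttles between nucleolus and cytoplasm and binds snoRNPs, had 6.62 and 6.53 in CCR7+Il12b+ cells, 6.94, 6.91 and 6.80 in CCR7+Il12b- cells and 7.65, 7.58 and 7.64 in immature cells. Its spread within fractions was small, and it differed from immature cells by -1.05 ± 0.11 in CCR7+Il12b+ cells (adjusted p = 2.24e-05) and by -0.74 ± 0.10 in CCR7+Il12b- cells (adjusted p = 0.000279). Npm1, the gene of nucleophosmin, differed by -0.66 ± 0.15 in CCR7+Il12b+ cells (adjusted p = 0.00441, and 0.0520 without CCR7+Il12b+ replicate 2). Its difference of -0.38 ± 0.13 in CCR7+Il12b- cells had an adjusted p of 0.0593, and passed without CCR7+Il12b- replicate 1 (0.0111). It also passed with arrays centred on their medians (0.0471), after quantile normalization (0.0319) and with array weights (0.0156).

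**Figure D2:**
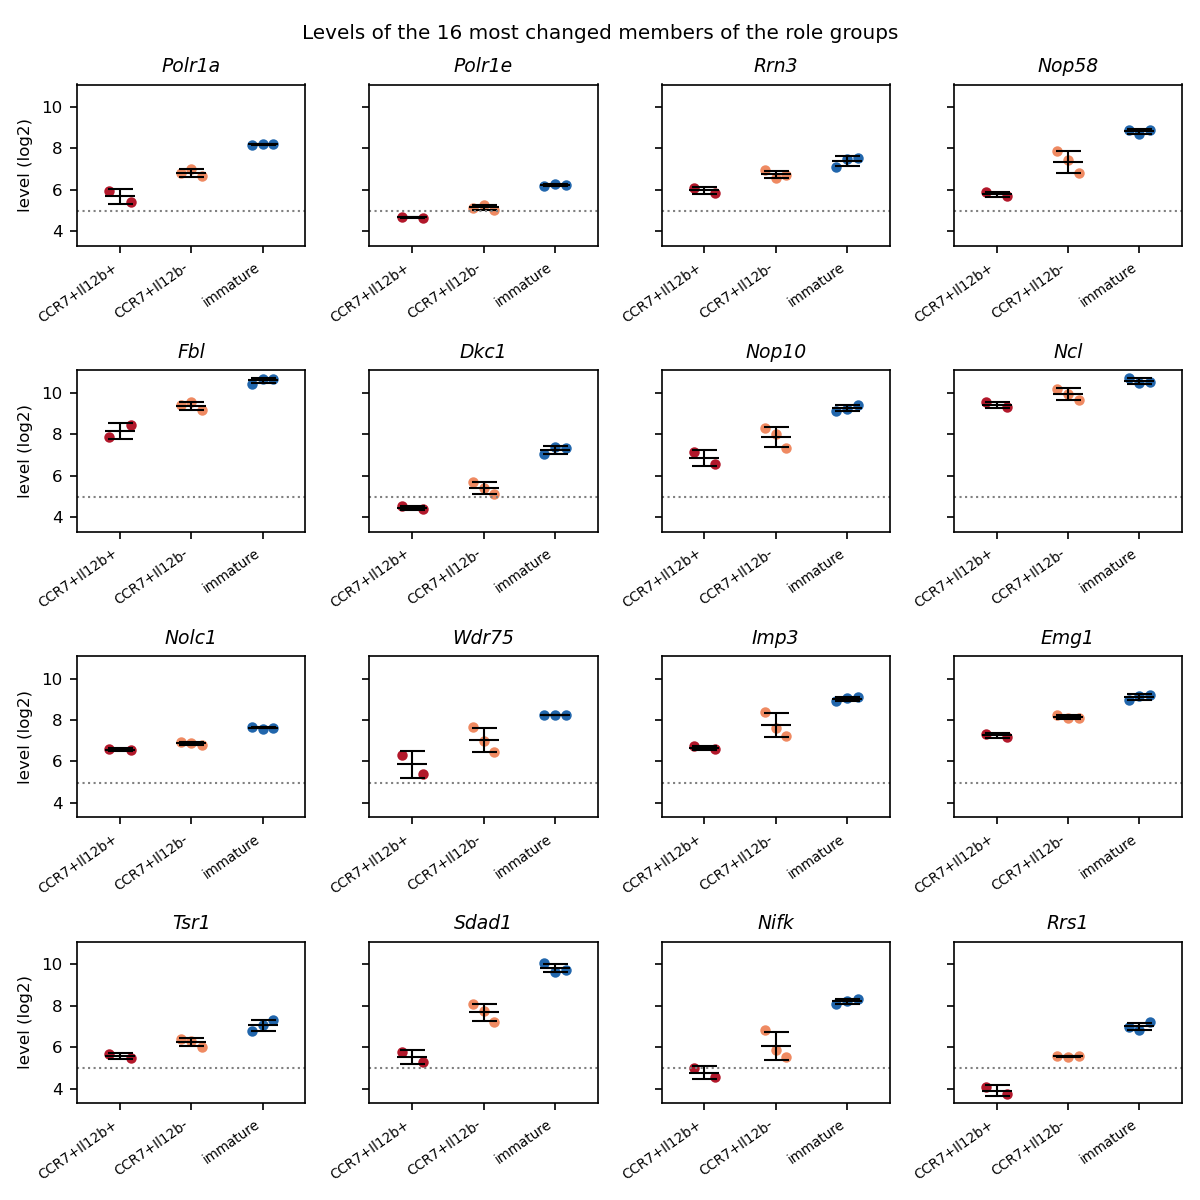
Levels (log2) of 16 genes with the largest differences in their role group, 1 panel a gene, with CCR7+Il12b+ arrays (n = 2) at the left, CCR7+Il12b- arrays (n = 3) in the middle and immature arrays (n = 3) at the right. Points are arrays, bars give the mean ± SD, and the dotted line is the background mark of 4.98; Rrs1, Dkc1, Nifk and Polr1e reach or cross it in CCR7+Il12b+ cells.

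The small subunit processome assembles on the nascent precursor around the U3 particle. Of its 15 genes 13 fell in CCR7+Il12b+ cells and 11 in CCR7+Il12b- cells, with median log2 differences of -1.30 and -0.78. Between the matured fractions 5 were lower in CCR7+Il12b+ cells. Wdr75, a subunit of the UTP-A complex that binds the precursor early, was at 6.32 and 5.40 in CCR7+Il12b+ cells, 7.66, 6.97 and 6.47 in CCR7+Il12b- cells and 8.24, 8.24 and 8.26 in immature cells. Immature arrays agreed closely while matured ones spread. The differences from immature cells were -2.39 ± 0.31 in CCR7+Il12b+ cells (adjusted p = 0.000125) and -1.22 ± 0.28 in CCR7+Il12b- cells (adjusted p = 0.00845). That between the matured fractions (-1.17 ± 0.31, adjusted p = 0.0480) did not pass without any 1 array other than CCR7+Il12b- replicate 3 or CCR7+Il12b+ replicate 1 (0.0616 to 0.342), with arrays centred on their medians (0.0767) or with both matured fractions alone (0.106). Imp3, which holds the U3 RNA to the precursor together with Imp4 and Mphosph10, had 6.73 and 6.60 in CCR7+Il12b+ cells, 8.39, 7.60 and 7.24 in CCR7+Il12b- cells and 8.90, 9.04 and 9.10 in immature cells. It fell 5.09-fold in CCR7+Il12b+ cells (-2.35 ± 0.26, adjusted p = 3.23e-05) and 2.41-fold in CCR7+Il12b- cells (-1.27 ± 0.23, adjusted p = 0.00207). No fraction overlapped another. The difference between the matured fractions, -1.08 ± 0.26 (adjusted p = 0.0283), was no longer called without CCR7+Il12b- replicate 2 (0.0617) or CCR7+Il12b+ replicate 1 (0.116) or 2 (0.148), or with both matured fractions alone (0.0679). Its partner Mphosph10 had log2 differences of -2.03 ± 0.15 in CCR7+Il12b+ cells and -1.09 ± 0.14 in CCR7+Il12b- cells. Between the matured fractions it was -0.94 ± 0.15 (adjusted p = 0.00379), which passed under every alternative tried. Imp4 differed by -0.86 ± 0.20 in CCR7+Il12b+ cells (adjusted p = 0.00724, and 0.0941 without CCR7+Il12b+ replicate 2). It differed by -0.49 ± 0.18 in CCR7+Il12b- cells (adjusted p = 0.0785). That difference passed without immature replicate 1 (0.0101) or CCR7+Il12b- replicate 1 (0.0466) and with array weights (0.00669). Wdr43, another UTP-A subunit, fell in both matured fractions (-1.98 ± 0.17 and -0.99 ± 0.15) and was lower in CCR7+Il12b+ than in CCR7+Il12b- cells (-1.0 ± 0.17, adjusted p = 0.00512). Utp18 and Tbl3, of the UTP-B complex, were not called in any comparison, with log2 differences in CCR7+Il12b+ cells of -0.43 ± 0.21 (95% interval -0.89 to 0.03) and -0.32 ± 0.18 (-0.71 to 0.08). Utp18 passed without CCR7+Il12b+ replicate 1 (adjusted p = 0.00896). Of the other 8 processome genes, Utp15, Heatr1, Wdr36, Nop14, Noc4l and Utp20 fell in both matured fractions, by log2 differences from -1.44 (Utp15) to -1.11 (Utp20) in CCR7+Il12b+ cells and from -0.99 (Nop14) to -0.58 (Utp20) in CCR7+Il12b- cells. For CCR7+Il12b- cells the Utp15 call was lost on leaving out replicate 2 or 3 of either group (0.0734 to 0.107) and after quantile normalization (0.0622). The Utp20 call was lost on leaving out replicate 3 of either group or replicate 2 of the immature cells (0.0580 to 0.0819). Utp6, a UTP-B subunit, fell in CCR7+Il12b+ cells (-0.85 ± 0.17), and differed by -0.32 ± 0.15 in CCR7+Il12b- cells (adjusted p = 0.167, and 0.0143 with array weights). Wdr3, also of UTP-B, ran the other way between the matured fractions (0.20 ± 0.17, not called), with -0.59 ± 0.17 in CCR7+Il12b+ cells (adjusted p = 0.0190) and -0.78 ± 0.15 in CCR7+Il12b- cells (adjusted p = 0.00290) against immature cells. The CCR7+Il12b+ call of Wdr3 ended without immature replicate 2 (0.0717) or CCR7+Il12b+ replicate 2 (0.176) and after quantile normalization (0.0582).

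Later steps of 40S maturation were covered by 7 genes, of which 5 fell in each matured fraction against immature cells. Emg1, an enzyme that methylates a pseudouridine of the small subunit's RNA, was at 7.34 and 7.19 in CCR7+Il12b+ cells, 8.23, 8.09 and 8.10 in CCR7+Il12b- cells and 8.96, 9.15 and 9.20 in immature cells. The fractions were well apart, with a 3.58-fold fall in CCR7+Il12b+ cells (-1.84 ± 0.12, adjusted p = 9.43e-07), -0.97 ± 0.11 in CCR7+Il12b- cells (adjusted p = 0.000106) and -0.87 ± 0.12 between the matured fractions (adjusted p = 0.00173). Tsr1, a factor that keeps the 40S precursor from binding its partners too early, had 5.66 and 5.46 in CCR7+Il12b+ cells, 6.39, 6.30 and 6.02 in CCR7+Il12b- cells and 6.79, 7.07 and 7.31 in immature cells. It differed from immature cells by -1.49 ± 0.17 in CCR7+Il12b+ cells (adjusted p = 3.97e-05) and by -0.82 ± 0.15 in CCR7+Il12b- cells (adjusted p = 0.00230). The value for CCR7+Il12b+ against CCR7+Il12b- cells was -0.67 ± 0.17 (adjusted p = 0.0343), and leaving out CCR7+Il12b+ replicate 1 (0.0890) or 2 (0.186), CCR7+Il12b- replicate 1 (0.103) or 2 (0.110) or immature replicate 2 (0.0614) ended the call. Centring arrays on their medians did so too (0.0509). Nob1, the nuclease that makes the last cut of the small subunit's RNA, and Riok2, a kinase of the late precursor, also fell. Their log2 differences were -1.17 ± 0.16 and -0.93 ± 0.16 in CCR7+Il12b+ cells, and -0.74 ± 0.14 and -0.66 ± 0.14 in CCR7+Il12b- cells. Rrp12, which takes part in export of both subunits in yeast, had similar differences from immature cells in both matured fractions, -0.57 ± 0.14 in CCR7+Il12b+ (adjusted p = 0.00843, and 0.0616 without CCR7+Il12b+ replicate 1) and -0.61 ± 0.13 in CCR7+Il12b- cells (adjusted p = 0.00442). Bysl and the kinase gene Riok1 were not called in any comparison. In CCR7+Il12b+ cells their log2 differences from immature cells were -0.47 ± 0.26 (95% interval -1.04 to 0.10) and -0.50 ± 0.25 (-1.05 to 0.06). Riok1 passed there without CCR7+Il12b+ replicate 1 (adjusted p = 0.0144), and for CCR7+Il12b- against immature cells with array weights (0.0425).

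The 60S assembly genes included the largest fall of the 56 in each comparison. In both comparisons with immature cells 15 of its 17 measured genes fell, with median log2 differences of -1.46 (-1.44 with bounds) in CCR7+Il12b+ cells and -0.86 in CCR7+Il12b- cells. Between the matured fractions 7 were lower in CCR7+Il12b+ cells. Sdad1, the mouse counterpart of a yeast factor needed for export of the 60S precursor, was at 5.75 and 5.28 in CCR7+Il12b+ cells, 8.07, 7.74 and 7.23 in CCR7+Il12b- cells and 10.05, 9.65 and 9.75 in immature cells. No fraction overlapped another, and the falls against immature cells were 19.7-fold in CCR7+Il12b+ cells (-4.30 ± 0.23, adjusted p = 2.21e-07) and 4.39-fold in CCR7+Il12b- cells (-2.13 ± 0.21, adjusted p = 3.47e-05). CCR7+Il12b+ and CCR7+Il12b- cells differed 4.48-fold (-2.16 ± 0.23, adjusted p = 0.000445). Nifk, whose protein binds the proliferation antigen Ki-67 on mitotic chromosomes and takes part in 60S assembly, had 5.0 and 4.55 in CCR7+Il12b+ cells, 6.82, 5.87 and 5.53 in CCR7+Il12b- cells and 8.09, 8.22 and 8.32 in immature cells. It fell at least 9.33-fold in CCR7+Il12b+ cells, whose mean was below the background mark (adjusted p = 6.03e-06), and 4.40-fold in CCR7+Il12b- cells (-2.14 ± 0.27, adjusted p = 0.000197). Against CCR7+Il12b- cells it was at least 2.12-fold lower (adjusted p = 0.0244). This call was lost without CCR7+Il12b- replicate 2 (0.0501) or CCR7+Il12b+ replicate 1 (0.0697) or 2 (0.174), or with both matured fractions alone (0.0605). Rrs1, which brings the 5S RNA particle into the 60S precursor, was at 4.09 and 3.73 in CCR7+Il12b+ cells, 5.56, 5.55 and 5.56 in CCR7+Il12b- cells and 6.98, 6.82 and 7.20 in immature cells. Its CCR7+Il12b- arrays were nearly equal, and it fell at least 4.06-fold in CCR7+Il12b+ cells (adjusted p = 7.22e-08), and 2.72-fold in CCR7+Il12b- cells (-1.44 ± 0.13, adjusted p = 1.85e-05). It was at least 1.49-fold lower in CCR7+Il12b+ than in CCR7+Il12b- cells (adjusted p = 0.000175).

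The PeBoW complex of Pes1, Bop1 and Wdr12, needed to process the 60S part of the precursor, did not move evenly in the values measured. Wdr12 was at 4.58 and 5.31 in CCR7+Il12b+ cells, 6.0, 5.86 and 5.82 in CCR7+Il12b- cells and 6.91, 7.11 and 7.28 in immature cells, without overlap. It fell at least 3.88-fold in CCR7+Il12b+ cells (adjusted p = 7.78e-06), and its log2 difference in CCR7+Il12b- cells was -1.21 ± 0.17 (adjusted p = 0.000493). Pes1 had 6.59 and 6.31 in CCR7+Il12b+ cells, 7.46, 7.34 and 7.27 in CCR7+Il12b- cells and 7.81, 8.17 and 8.38 in immature cells, also without overlap. Its log2 differences from immature cells were -1.67 ± 0.17 and -0.76 ± 0.15 in CCR7+Il12b+ and CCR7+Il12b- cells. Bop1 had 5.58 and 6.32 in CCR7+Il12b+ cells, 6.28, 6.28 and 6.29 in CCR7+Il12b- cells and 6.35, 6.49 and 6.76 in immature cells. In CCR7+Il12b+ cells Bop1 differed from immature cells by -0.59 ± 0.19 (adjusted p = 0.0394). That call was lost without CCR7+Il12b+ replicate 1 (0.334), CCR7+Il12b- replicate 2 (0.0562) or immature replicate 2 (0.0793) or 3 (0.133). It was also lost after quantile normalization (0.135) and with both groups alone (0.0654). In CCR7+Il12b- cells Bop1 differed by -0.25 ± 0.17 (95% interval -0.63 to 0.14, adjusted p = 0.354). Whether these 3 genes differ from each other was not tested.

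Among the other 60S genes, Gnl3, the gene of nucleostemin, fell in both matured fractions (-2.17 ± 0.14 and -1.10 ± 0.12) and between them (-1.07 ± 0.14, adjusted p = 0.00110). Brix1, Rrp15, Noc3l, Ebna1bp2, Rrp1b, Mrto4, Nop16 and Nop2 also fell in both, with log2 differences in CCR7+Il12b+ cells from -1.74 (Brix1) to -0.95 (Nop2), and in CCR7+Il12b- cells from -1.21 to -0.63. Noc3l was below the mark in CCR7+Il12b+ cells, a fall of at least 2.40-fold. The CCR7+Il12b+ call of Mrto4 was lost without CCR7+Il12b+ replicate 2 (0.0814), and its CCR7+Il12b- call on leaving out replicate 2 or 3 of either group (0.0784 to 0.0869). The CCR7+Il12b- call of Noc3l was lost on leaving out replicate 3 of either group or CCR7+Il12b- replicate 2 (0.0537 to 0.0740). Gtpbp4 and Nle1 were the 60S genes not called in CCR7+Il12b+ cells. Gtpbp4, the counterpart of yeast Nog1, a GTPase of the nuclear 60S precursor, was at 9.30 and 8.96 in CCR7+Il12b+ cells, 8.70, 8.51 and 8.67 in CCR7+Il12b- cells and 9.19, 8.88 and 9.01 in immature cells. Its CCR7+Il12b+ arrays overlapped the immature ones (log2 difference 0.10 ± 0.14, 95% interval -0.21 to 0.42, adjusted p = 0.616), while its CCR7+Il12b- arrays lay below both. For CCR7+Il12b- against immature cells the difference was -0.40 ± 0.13 (adjusted p = 0.0427), which was lost on leaving out any 1 array of those groups (0.0531 to 0.143) and after quantile normalization (0.105). In CCR7+Il12b+ against CCR7+Il12b- cells it differed by 0.50 ± 0.14 (adjusted p = 0.0615), and was called as a rise without CCR7+Il12b+ replicate 2 (0.0443). Nle1, whose yeast counterpart Rsa4 acts in nuclear maturation of the 60S precursor, was at 6.14 and 6.49 in CCR7+Il12b+ cells, 6.45, 6.23 and 6.35 in CCR7+Il12b- cells and 6.32, 6.28 and 6.57 in immature cells. All its groups overlapped, and its difference in CCR7+Il12b+ against immature cells was -0.08 ± 0.14 with a 95% interval of -0.40 to 0.24, which leaves out a 2-fold fall.

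**Figure D3:**
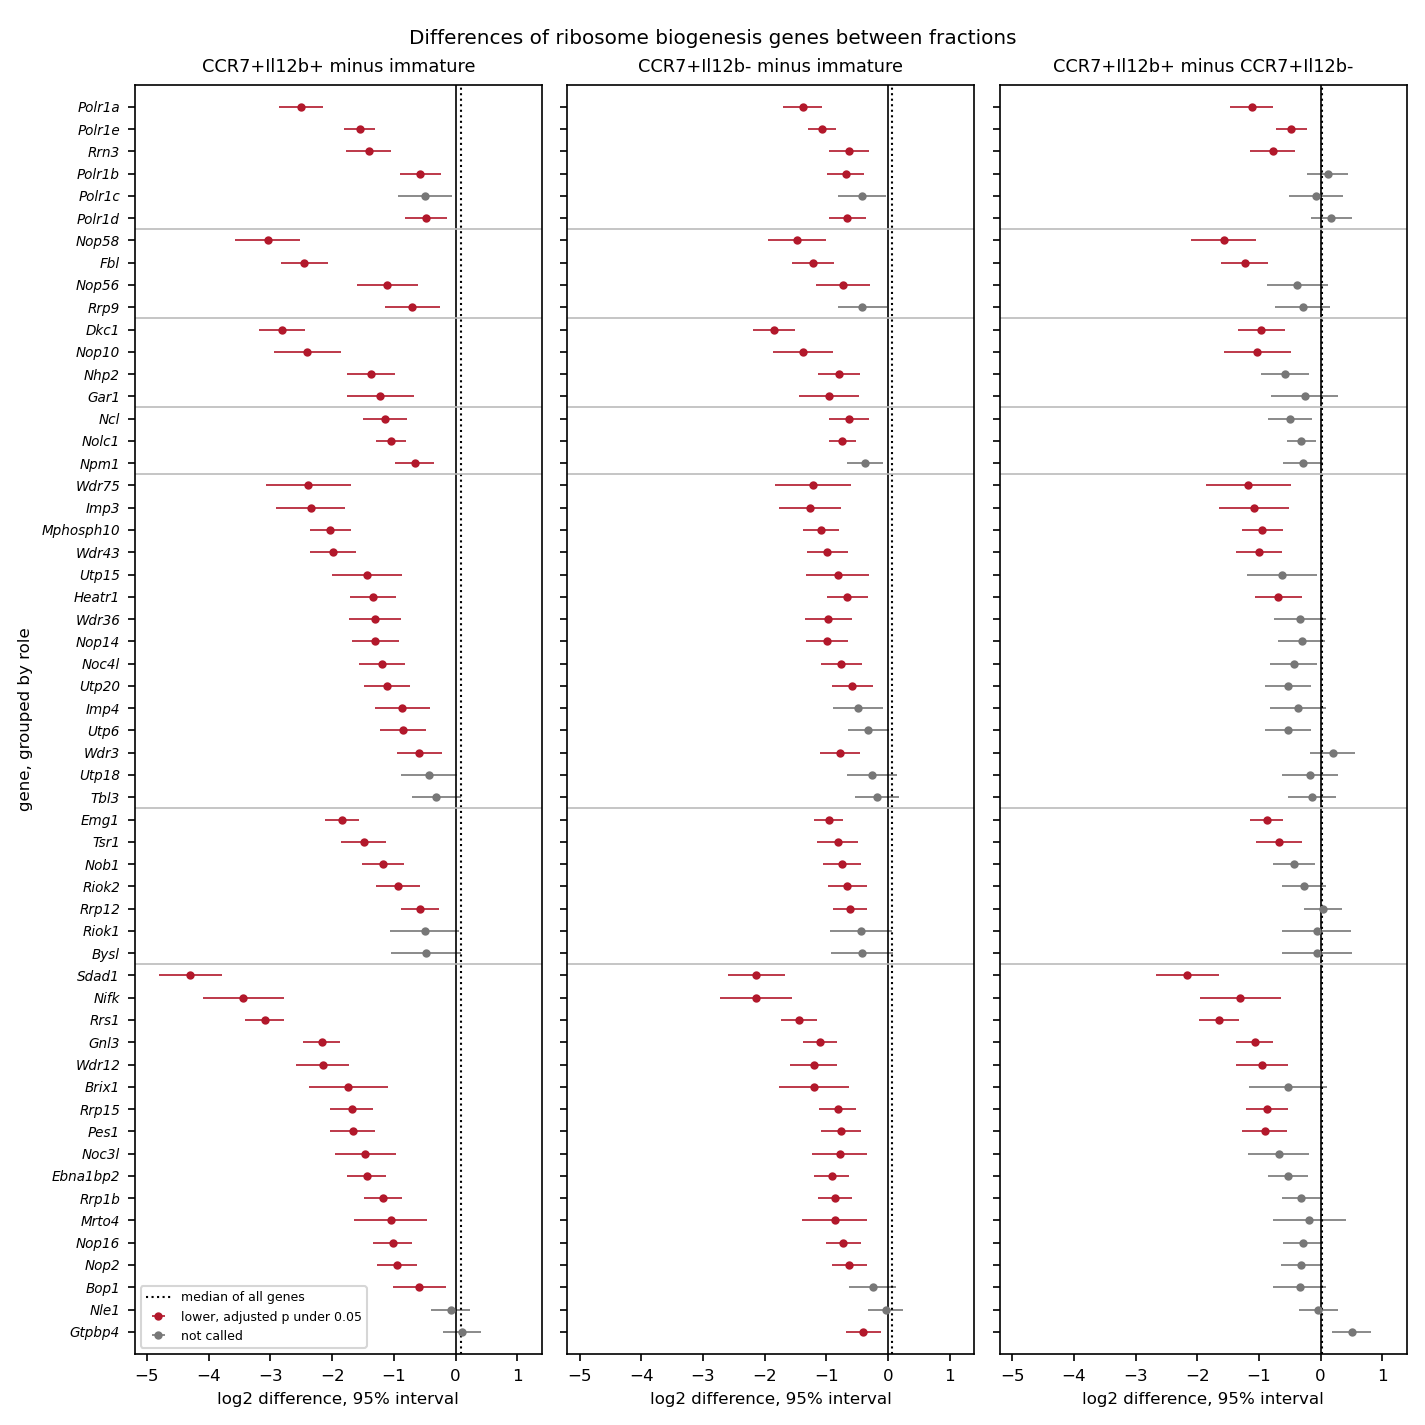
Log2 differences with 95% intervals (horizontal axes) of the 56 genes (rows, grouped by role) for CCR7+Il12b+ minus immature cells (left), CCR7+Il12b- minus immature cells (middle) and CCR7+Il12b+ minus CCR7+Il12b- cells (right). Red points were called lower (49, 45 and 21 genes), grey points were not called, and the dotted line is the median of all genes (0.09, 0.06 and 0.02).

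Further genes of the same pathway, outside the 58, were counted by list. Of 27 other small subunit processome and 40S factors 25 fell in CCR7+Il12b+ cells and 18 in CCR7+Il12b- cells. Between the matured fractions 10 were lower in CCR7+Il12b+ cells, and the 3 comparisons had medians of -1.01, -0.55 and -0.44. Utp14a, a processome factor, was the largest fall in CCR7+Il12b+ cells (-2.16 ± 0.15), and Dimt1, which methylates the small subunit's RNA, in CCR7+Il12b- cells (-1.52 ± 0.18). Of 31 other 60S factors 24, 21 and 8 fell in the same comparisons, with medians of -0.81, -0.56 and -0.21. Rpf2, the partner of Rrs1, was at 5.81 and 5.83 in CCR7+Il12b+ cells, 6.96, 7.05 and 6.83 in CCR7+Il12b- cells and 8.40, 8.52 and 8.47 in immature cells. It was the largest fall of that list in both comparisons with immature cells (-2.65 ± 0.11, adjusted p = 4.60e-08, and -1.52 ± 0.10, adjusted p = 2.15e-06). None of these factors rose in limma's test, and none had a higher value at an unadjusted p under 0.05.

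The RNA exosome, which trims ribosomal RNA ends, gave 11 falls among 12 genes in each comparison with immature cells (medians -1.25 for CCR7+Il12b+ and -0.92 for CCR7+Il12b- cells) and 3 between the matured fractions. Exosc8, a subunit of its ring, fell most (-1.91 ± 0.25 and -1.18 ± 0.23). Of 11 factors that assemble snoRNPs 7, 6 and 2 fell in CCR7+Il12b+ against immature, CCR7+Il12b- against immature and CCR7+Il12b+ against CCR7+Il12b- cells. These were 63.6%, 54.5% and 18.2% of the list, beside the same shares of all genes, with medians of -1.13, -0.73 and -0.39. Ruvbl1, an ATPase used in that assembly and in chromatin complexes, was at 5.75 and 6.12 in CCR7+Il12b+ cells, 7.53, 7.28 and 6.90 in CCR7+Il12b- cells and 8.48, 8.78 and 8.86 in immature cells. It fell furthest of that list (log2 difference -2.77 ± 0.19 in CCR7+Il12b+ cells, adjusted p = 1.30e-06). Among 9 other RNA polymerase I and initiation factors, which include Ubtf and the TAF1 genes of the promoter complex, 4, 3 and 1 fell. These were 44.4%, 33.3% and 11.1% of the list, beside 17.9%, 14.5% and 4.47% of all genes. Among genes with a mean above the background mark the shares were 28.0%, 22.8% and 7.11%. The list's medians were -0.10, -0.11 and -0.11, and the 1 fall between the matured fractions was of Znrd1. Znrd1, another subunit of the polymerase, was at 6.48 and 6.90 in CCR7+Il12b+ cells, 8.10, 7.99 and 7.36 in CCR7+Il12b- cells and 9.23, 9.11 and 9.24 in immature cells. It fell by 2.50 ± 0.21 in CCR7+Il12b+ cells (adjusted p = 3.87e-06).

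RNA polymerase III, which makes 5S ribosomal RNA and transfer RNA, had calls in both directions. Of 9 subunit genes 6 fell and 1 rose in CCR7+Il12b+ cells, 5 fell and 1 rose in CCR7+Il12b- cells, and between the matured fractions none fell (1 at an unadjusted p under 0.05) and 1 rose in limma's test. Of all genes 17.9%, 14.5% and 4.47% fell and 14.1%, 9.1% and 2.61% rose in the same comparisons. The rise in this list was of Polr3c in each comparison. Polr3c was at 9.72 and 9.47 in CCR7+Il12b+ cells, 9.0, 8.92 and 9.01 in CCR7+Il12b- cells and 7.19, 7.46 and 7.59 in immature cells. The log2 difference was 2.18 ± 0.14 in CCR7+Il12b+ cells (adjusted p = 7.23e-07) and 1.56 ± 0.12 in CCR7+Il12b- cells (adjusted p = 8.80e-06). The call between CCR7+Il12b+ and CCR7+Il12b- cells (0.62 ± 0.14, adjusted p = 0.0224) was lost without CCR7+Il12b- replicate 1 (0.0534) or 2 (0.0809) or CCR7+Il12b+ replicate 1 (0.150). Polr3k was the largest fall of this list (-1.45 ± 0.18 for CCR7+Il12b+ and -1.0 ± 0.16 for CCR7+Il12b- cells, against immature cells).

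Proteins of the finished ribosome were set beside the factors that build it. Of 54 cytosolic ribosomal protein genes measured as 1 symbol, 13 fell in CCR7+Il12b+ cells (24.1%, beside 17.9% of all genes) and 3 in CCR7+Il12b- cells (5.56%, beside 14.5%), with medians of -0.18 and -0.08. Among genes with a mean above the background mark the shares were 28.0% and 22.8%. The median immature level was 12.15 for ribosomal protein genes and 7.42 for the 56 biogenesis genes. No ribosomal protein gene rose, also at an unadjusted p under 0.05, and none differed between the matured fractions in limma's test (4 lower at an unadjusted p under 0.05). The other 23 listed ribosomal protein genes were not analysed here, and the ribosomal protein genes were not tested against the biogenesis genes. Rpl14 fell most, with levels of 8.90 and 9.05 in CCR7+Il12b+ cells, 9.57, 9.16 and 8.91 in CCR7+Il12b- cells and 10.05, 10.06 and 10.08 in immature cells (log2 difference -1.09 ± 0.17 in CCR7+Il12b+ cells, adjusted p = 0.000458).

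Among the MYC genes, Myc was at 7.32 and 6.61 in CCR7+Il12b+ cells, 8.30, 8.15 and 7.47 in CCR7+Il12b- cells and 9.61, 9.41 and 9.63 in immature cells. The fractions did not overlap, and Myc fell by 2.59 ± 0.25 in CCR7+Il12b+ cells (adjusted p = 1.34e-05) and by 1.58 ± 0.22 in CCR7+Il12b- cells (adjusted p = 0.000455) against immature cells. Mycl, the family member known from dendritic cells, had log2 differences of -2.30 ± 0.22 and -1.07 ± 0.20 in the same comparisons, and Mycn was not called. Myc differed by -1.01 ± 0.25 between the matured fractions (adjusted p = 0.0339), a call lost under 7 alternatives (0.0518 to 0.258). Among these were leaving out CCR7+Il12b+ replicate 2, CCR7+Il12b- replicate 1 or 2 and immature replicate 2 or 3. Mycl differed between the matured fractions by -1.23 ± 0.22 (adjusted p = 0.00766), a call lost without CCR7+Il12b+ replicate 1. Any part of Myc or Mycl in the levels of the biogenesis genes was not tested.

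**Figure D4:**
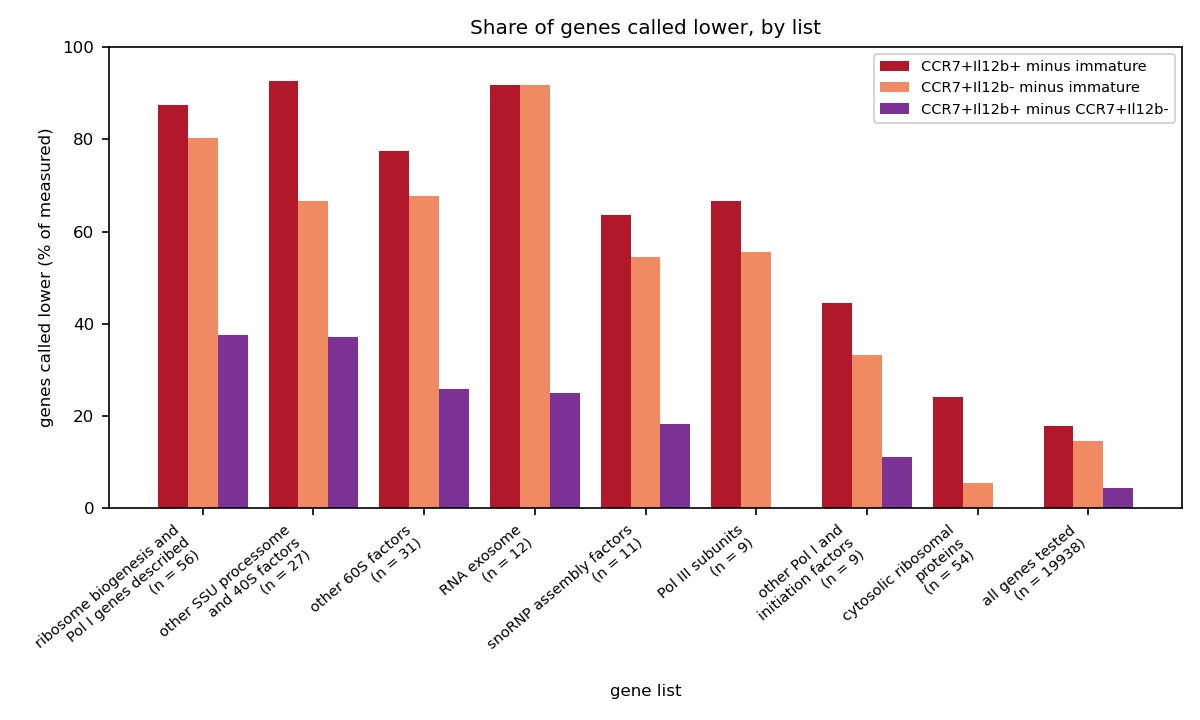
Share of measured genes called lower (vertical axis, percent) in each list (horizontal axis, n measured genes) for CCR7+Il12b+ minus immature (red), CCR7+Il12b- minus immature (orange) and CCR7+Il12b+ minus CCR7+Il12b- cells (purple). Shares in the biogenesis genes described, the further assembly factors and the exosome stand above those over all genes tested (17.9%, 14.5% and 4.47%), and those in cytosolic ribosomal proteins are 24.1%, 5.56% and 0%.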

How the data were processed

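RNA from 8 sorted spleen samples was hybridised to mouse gene arrays, from an input of 3 or 20 ng that the labels do not assign to samples. The deposited values are log2 expression after robust multi-array averaging (RMA) in oligo, per the submitters' processing notes; versions are not given in those notes. RMA makes the arrays' distributions alike, so that a change in total RNA per cell does not show.

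Of 35556 rows, 21789 carried 1 gene symbol, 1621 several and 12146 none in the platform annotation used. Rows with 1 symbol gave 19938 genes, of which 999 had more than 1 row and were represented by the row with the highest mean over the 8 arrays. The background mark of 4.98 is the 95th percentile over 1194 genes of olfactory or vomeronasal receptors, and a gene with a lower mean in a fraction was taken as not above background there.

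The fit was limma's lmFit and eBayes (limma 3.58.1, R 4.3.3) on 3 group means over all 8 arrays, with Benjamini-Hochberg adjustment over all genes, and was checked on simulated data. The members and gene lists were chosen with earlier results of these data known, so no list was tested as a set. Array values are printed for the 2 genes with the largest difference in each role and comparison. They are also printed for Wdr12, Pes1, Bop1, Gtpbp4 and Nle1, picked after their values were seen. Genes outside the 58 with values given, apart from cell type markers, are the largest called fall or rise of their list in 1 or more comparisons. Alternatives were a replicate block, median centring, a second quantile normalization, a filter on low values, the compared groups alone, the mean of all rows of a gene, array weights, and each array left out in turn. Promoter windows came from RefSeq (GRCm38.p6), whose coordinates belong to that table, since no build is named for the array values.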

Additional observations from a re-analysis of the deposited data

How the results depend on the processing

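The number of genes that fell was most dependent on the arrays between the matured fractions. Leaving out each array in turn gave 43 to 50 falls for CCR7+Il12b+ against immature cells, 39 to 47 for CCR7+Il12b- against immature cells and 13 to 24 for CCR7+Il12b+ against CCR7+Il12b- cells, with medians from -1.37 to -1.15, from -0.90 to -0.71 and from -0.57 to -0.42. The lowest count of the last comparison, 13, came without CCR7+Il12b+ replicate 2, when 11 of the 21 falls were kept and 1 gene, Gtpbp4, was called higher; without the other arrays the counts of rises were 0. The other alternatives gave 47 to 49, 44 to 49 and 15 to 25 falls, and no direction of the medians turned. In all, 40 of 49, 39 of 45 and 9 of 21 calls passed under every alternative run; the cause of the changes was not tested. Same-numbered samples had correlations of their deviations from their group means from -0.169 to 0.216, and differently numbered samples from -0.216 to 0.187. Deviations within groups of 2 or 3 arrays constrain each other, so these values cannot decide whether replicate numbers pair the samples. With the replicate block the falls were 48, 45 and 19 and the medians -1.27, -0.78 and -0.50; between the matured fractions Polr1e (adjusted p = 0.0612), Rrn3 (0.0520) and Tsr1 (0.0918) were no longer called and Ncl was (0.0470), and Bop1 was lost for CCR7+Il12b+ against immature cells (0.0612). Groups of 2 and 3 arrays limit all of these values, and array intensities below the background mark give bounds only.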

Other observations

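The 4 genes with a second row gave these log2 differences in that row, for CCR7+Il12b+ against immature, CCR7+Il12b- against immature and CCR7+Il12b+ against CCR7+Il12b- cells. Fbl had -0.77, -0.61 and -0.16, Wdr12 had -2.22, -1.18 and -1.04, Mrto4 had -1.07, -0.90 and -0.17, and Polr1d had -0.75, -0.55 and -0.20. Of these values, 1 differs in sign from the row used: between CCR7+Il12b+ and CCR7+Il12b- cells the row used for Polr1d gave 0.18.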
